A study of Mus musculus with 9 samples.

Results

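The 9 genes described here encode CC chemokine ligands, namely Ccl2, Ccl3, Ccl4, Ccl5, Ccl6, Ccl7, Ccl9, Ccl17 and Ccl22. They were taken from 28137 Ensembl gene identifiers in the deposited table by their symbols in GENCODE M21, and the list was drawn up with their values by group already known. The differences of these 9 genes between the groups are therefore given as a description, without a test. The RNA came from RAW264.7, a mouse macrophage line from a leukemia, in 9 libraries, with 3 each for NC siRNA (the control siRNA), SFRP2 siRNA and RAB6A siRNA. Cells of all 3 groups were, by the labels, given 60 nM siRNA with a lipofection reagent for 6 h, kept for 12 h in complete medium and then exposed to lipopolysaccharide (LPS) at 100 ng/ml for 24 h, so no group is without LPS or without siRNA. The methods of the paper give another siRNA dose, reagent, medium and time after transfection and add IFN-γ, which the labels do not name. The paper does not describe a RAB6A siRNA group. It is not stated whether the 3 libraries of a group came from separate cultures or whether each received a different siRNA. The p-values and SEs thus rest on the spread between these libraries only. In the main fit the spread of each gene is moderated toward a trend over all genes.

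CC chemokines are small secreted proteins whose first 2 cysteines are adjacent. They bind G protein-coupled receptors on leukocytes and direct their migration along a gradient into inflamed tissue. Macrophages exposed to LPS are a known source of them, through Toll-like receptor signaling to NF-kB and interferon regulatory factors. The members fall by receptor and family into the CCR2 ligands Ccl2 and Ccl7, which attract monocytes, the macrophage inflammatory proteins Ccl3 and Ccl4 with Ccl5, the rodent CCR1 ligands Ccl6 and Ccl9, and the CCR4 ligands Ccl17 and Ccl22, which attract T cells.

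The members lie in clusters on GRCm38. On chromosome 11, Ccl2 (82035571 to 82037453, + strand) and Ccl7 (82045712 to 82047525, + strand) are 8.26 kb apart and are followed by Ccl11, Ccl12, Ccl8 and Ccl1, of which Ccl11 and Ccl1 were not analysed here. Farther along come Ccl5 (83525778 to 83530518), Ccl9 (83572919 to 83578636), Ccl6 (83587882 to 83593087) and Ccl3 (83647844 to 83649355) on the - strand, then Ccl4 (83662584 to 83664683) on the + strand. On chromosome 8, Ccl22 (94745590 to 94751699) and Ccl17 (94810453 to 94812036) are 58.8 kb apart on the + strand. Identical bases made up 69.1% of aligned coding positions between Ccl2 and Ccl7, 69.6% between Ccl3 and Ccl4 and 70.5% between Ccl6 and Ccl9. The neighbors Ccl5 and Ccl9 had 59.2% and Ccl17 and Ccl22 had 56.4%, less than the 67.8% of Ccl2 and Ccl4, which lie apart. Ccl6 and Ccl9 have 4 exons where the principal transcripts of the other 7 members have 3. Reads of 50 bases could still be told apart, since 8 members share no stretch of 50 bases with a transcript of another gene, and Ccl9 shares 59 of its 2957 (2.00%). Ccl2 overlaps Gm17268 and Ccl6 overlaps E230016K23Rik on the opposite strand. Strand-specific counting is not stated, and E230016K23Rik was at 0.166 to 0.420 FPKM in the 9 libraries.

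RefSeq start-site windows on GRCm38.p6, from 250 bases before the start to 50 after it, were found for 5 of the 9 members, Ccl3, Ccl6, Ccl9, Ccl17 and Ccl22. Among them, Ccl6 was higher in all 3 RAB6A siRNA libraries than in all others, while the 3 groups of its neighbor Ccl9 overlapped. Shown are both of these paralogs and Ccl22, which had the highest log2 fold change among the members. They lie on the - strand at chr11:83593038-83593337 (Ccl6) and chr11:83578587-83578886 (Ccl9) and on the + strand at chr8:94745434-94745733 (Ccl22), where the RefSeq start lies inside the GENCODE gene. Capitals mark in Ccl6 and Ccl9 the stretch that aligns between them, and in Ccl22 the 50 bases from the start on.
Ccl6: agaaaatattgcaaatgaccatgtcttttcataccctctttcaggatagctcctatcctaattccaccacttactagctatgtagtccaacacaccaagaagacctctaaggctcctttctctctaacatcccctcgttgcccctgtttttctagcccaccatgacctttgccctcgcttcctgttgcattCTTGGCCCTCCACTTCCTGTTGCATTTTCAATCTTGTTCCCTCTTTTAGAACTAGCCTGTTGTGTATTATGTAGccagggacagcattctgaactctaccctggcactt
Ccl9: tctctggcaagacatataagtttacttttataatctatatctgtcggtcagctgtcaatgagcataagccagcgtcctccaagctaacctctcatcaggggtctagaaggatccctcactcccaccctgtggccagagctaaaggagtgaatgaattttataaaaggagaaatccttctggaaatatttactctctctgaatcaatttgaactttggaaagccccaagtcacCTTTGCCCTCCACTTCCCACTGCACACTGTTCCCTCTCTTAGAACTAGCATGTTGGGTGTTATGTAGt
Ccl22: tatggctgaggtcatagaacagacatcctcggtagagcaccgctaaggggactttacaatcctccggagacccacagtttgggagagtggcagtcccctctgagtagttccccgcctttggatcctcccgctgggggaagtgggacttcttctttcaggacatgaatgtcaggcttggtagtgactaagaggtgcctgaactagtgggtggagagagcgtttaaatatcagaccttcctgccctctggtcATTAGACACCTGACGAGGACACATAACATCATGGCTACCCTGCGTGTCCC
The aligned stretch begins at base -59 from the start in Ccl6 and at base -18 in Ccl9, and 59 of its 74 aligned columns (79.7%) are identical. Both strands of the 5 windows were searched for the NF-kB site, the interferon element (GAAA, any 2 bases and GAAA), the AP-1 site TGANTCA and the TATA box TATAAA. The Ccl9 window holds 1 NF-kB site, at base -35 on the - strand. It also holds an AP-1 site at base -53, where the pattern TGANTCA matches on both strands. TATAAA has 3 matches in this window, of which 2 overlap on opposite strands. The other 4 windows hold no match of the 4 motifs. Of all 32851 windows of this length, 8.46% hold the NF-kB site, 3.44% the interferon element, 7.81% the AP-1 site and 13.6% the TATA box.

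Read totals behind the FPKM values (fragments scaled to exon length and library total) ranged from 32758729 to 47149258 per library. Rab6a was lower in the libraries labeled RAB6A siRNA, at 20.7 ± 0.445 (SD, n = 3) FPKM against 25.7 ± 1.48 (SD, n = 3) in the NC siRNA libraries (limma, log2 fold change -0.31, SE 0.06, adjusted p = 0.0024). In this comparison 36.5% of all genes were called lower, so a fall of this size is only a weak check of the label. Sfrp2 was listed from 2 to 4 reads in every library and gives no check of the SFRP2 siRNA label. Of 10 macrophage markers, 8 were at a mean FPKM of at least 0.5 in each group, with Cd14 and Cd68 highest. The summed level of the macrophage markers was 4563 to 5032 FPKM in the NC siRNA libraries, 4034 to 4365 in the SFRP2 siRNA libraries and 3957 to 4121 in the RAB6A siRNA libraries, and no marker of T cells, B cells, neutrophils, dendritic cells, fibroblasts, endothelium or epithelium passed 1.52 FPKM in any library. The sum of the macrophage markers rests mostly on Cd14 and Cd68, which were not called in RAB6A siRNA against NC. In the same comparison Lyz2 (-2.03), Csf1r (-1.44), Spi1 (-1.05) and Fcgr1 (-0.75) were called lower in limma under every alternative, and no macrophage marker was called higher. Adgre1 (-0.0003) and Itgam (0.09) were not called, nor were Cd14 (0.21) and Cd68 (-0.14). These values are log2 fold changes, in a comparison where 36.5% of all genes were called lower. The part of these markers in the differences of the CC ligands was not tested. In bulk RNA, fewer cells of a kind and less RNA per cell cannot be told apart.

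In the NC siRNA libraries the levels of the members spanned from Ccl3, a chemoattractant of macrophages and T cells also known as MIP-1α, at 23182 ± 1351 (SD, n = 3) FPKM, down to Ccl17 at 0, 0.0825 and 0.0915 FPKM. Per exon length, the order was Ccl3, Ccl2, Ccl4, Ccl9, Ccl5, Ccl7, Ccl6, Ccl22 and Ccl17, and the libraries of no 2 neighbors in this order overlapped. The SFRP2 siRNA libraries gave the same order, again without overlap between neighbors. In the RAB6A siRNA libraries the order was Ccl3, Ccl4, Ccl5, Ccl9, Ccl2, Ccl22, Ccl7, Ccl6 and Ccl17, and only Ccl4 and Ccl5 overlapped as neighbors. Ccl2 thus stood after Ccl9, and Ccl22 stood before Ccl7. The plot of member levels by library shows these values on a log2 scale.

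**Figure D1:**
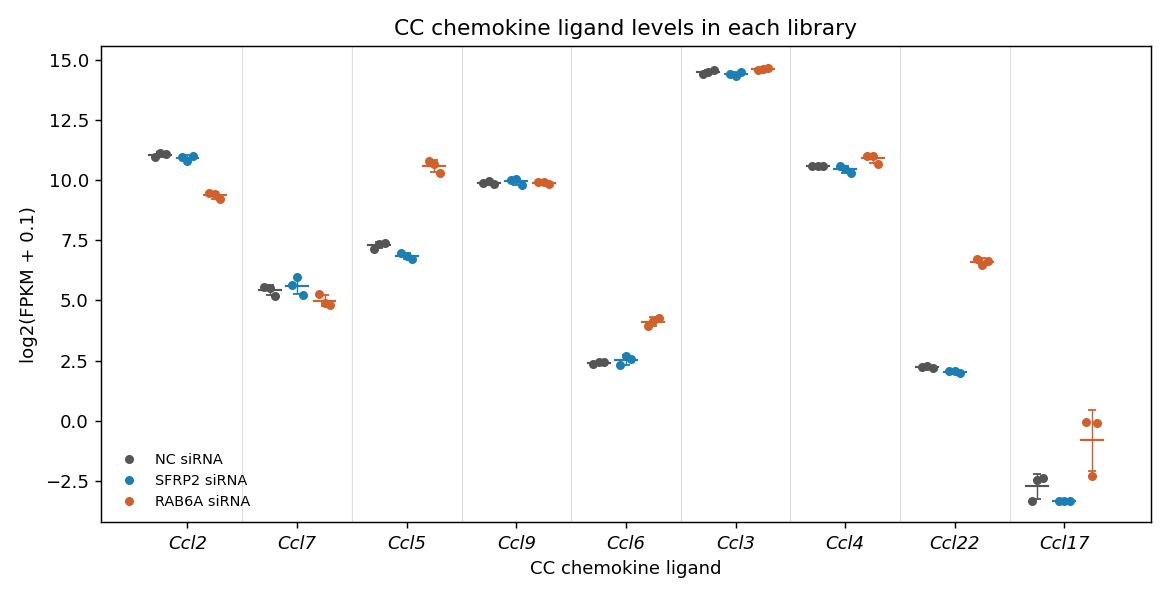
CC chemokine ligand levels in the 9 libraries, as log2(FPKM + 0.1) on the y axis, with 1 point per library, a line at the mean and bars of 1 SD (n = 3) for NC siRNA, SFRP2 siRNA and RAB6A siRNA. Ccl5, Ccl6 and Ccl22 are higher and Ccl2 is lower in all 3 RAB6A siRNA libraries than in any other library, while the 3 groups lie close together for Ccl3 and Ccl9.

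In the comparison of RAB6A siRNA with NC, the members parted in both directions. Ccl22, Ccl5 and Ccl6 were 21.2, 9.81 and 3.36 times as high in mean FPKM in the libraries labeled RAB6A siRNA, Ccl2 was 3.22 times as low, and Ccl3 and Ccl9 were 1.09 and 1.01 times as high, with the sign of both depending on the scaling. Averaged over both groups, 8 members reached 0.5 FPKM, the minimum for the fit, and Ccl17 did not. Of these 8, 4 had all 3 RAB6A siRNA libraries above all 3 NC siRNA libraries and 1 had all 3 below, in a comparison where 39.2% of all 12712 genes were higher and 38.2% lower without overlap (77.4% in all). An absolute log2 fold change over 1 was found for 4 of the 8, against 31.1% of all genes. At an adjusted p under 0.05, 74.1% of the genes were called in limma, and 30.1% were DEGs, with an absolute log2 fold change over 1 as well. Since the members were chosen with these values known, nothing is read from these shares.

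Ccl2, also known as MCP-1, is the main CCR2 ligand that draws monocytes out of the blood. It was at 1978, 2276 and 2174 FPKM in the NC siRNA libraries, at 2015, 1792 and 2041 FPKM in the SFRP2 siRNA libraries and at 703, 695 and 595 FPKM in the RAB6A siRNA libraries. All 3 RAB6A siRNA libraries were below the other 6, and the NC and SFRP2 siRNA groups overlapped. The log2 fold change on the log2(FPKM + 0.1) scale, used throughout, was -1.69 (SE 0.10) in RAB6A siRNA against NC and -0.14 (SE 0.08) in SFRP2 siRNA against NC. Among all genes, Ccl2 was the 15th or 16th highest by FPKM in the NC siRNA libraries and between the 62nd and the 73rd in the RAB6A siRNA libraries. Ccl7, or MCP-3, a ligand of CCR2 and other CC receptors, was at 47.7, 46.0 and 36.7 FPKM with NC siRNA and at 37.9, 29.7 and 28.1 FPKM with RAB6A siRNA. The highest RAB6A siRNA library lay above the lowest NC library, so these groups overlapped. Its log2 fold change was -0.45 (SE 0.14), and -0.88 once GC content and gene length were corrected for. With SFRP2 siRNA, Ccl7 was at 49.9, 62.4 and 37.6 FPKM, the widest relative spread of a group among the members other than Ccl17.

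Ccl3, Ccl4 and Ccl5, which attract T cells and monocytes, differed from each other in the RAB6A siRNA libraries. Ccl3 was at 21914, 23029 and 24603 FPKM with NC siRNA, at 21815, 20706 and 23029 FPKM with SFRP2 siRNA and at 24378, 25483 and 26242 FPKM with RAB6A siRNA. The groups overlapped in both comparisons, and the log2 fold change in RAB6A siRNA against NC was 0.13 (SE 0.15). It turned to -0.22 with quantile normalization and to -0.30 with the correction for GC content and gene length. The SE of Ccl3 is moderated toward a trend over all genes and is not the spread of its libraries alone. It was 0.99 with no filter and 0.08 with limma voom on recovered reads. Ccl3 was the gene with the highest FPKM, or the second after mt-Co1, in the NC siRNA libraries, and the second in every RAB6A siRNA library, where mt-Co1 itself was at 58700 ± 3587 (SD, n = 3) FPKM against 23214 ± 1372 (SD, n = 3) with NC siRNA. Ccl4, or MIP-1β, was at 1545, 1532 and 1554 FPKM with NC siRNA and at 2067, 2065 and 1647 FPKM with RAB6A siRNA. All 3 RAB6A siRNA libraries were above NC, with a log2 fold change of 0.31 (SE 0.11) that turned to -0.20 with the correction for GC content and gene length. With SFRP2 siRNA it was at 1554, 1396 and 1270 FPKM and overlapped NC.

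Ccl5, also known as RANTES, attracts T cells and monocytes and is a known target of LPS and interferon signaling. It was at 142, 165 and 170 FPKM in the NC siRNA libraries and at 1779, 1644 and 1252 FPKM in the RAB6A siRNA libraries, read from 5664 to 7457 and from 39361 to 62075 reads. The lowest RAB6A siRNA library was above the highest of the other 6, and the log2 fold change was 3.28 (SE 0.14). In rank by FPKM, Ccl5 moved from between the 224th and the 261st gene with NC siRNA to between the 17th and the 27th with RAB6A siRNA. In the SFRP2 siRNA libraries it was at 124, 116 and 105 FPKM. All 3 of these libraries were below all 3 NC libraries, with a log2 fold change of -0.46 (SE 0.09).

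Ccl6 and Ccl9, the 4-exon members whose start regions are printed above, lie next to each other at a distance of 9.25 kb. Ccl6, a ligand of CCR1 made by myeloid cells, was at 4.98, 5.26 and 5.27 FPKM with NC siRNA and at 15.1, 17.8 and 19.3 FPKM with RAB6A siRNA. All 3 RAB6A siRNA libraries were above all others, with a log2 fold change of 1.72 (SE 0.10). With SFRP2 siRNA it was at 4.82, 6.43 and 5.85 FPKM, which overlapped NC. Ccl9, or MIP-1γ, was at 933, 997 and 906 FPKM with NC siRNA, at 1043, 1062 and 885 FPKM with SFRP2 siRNA and at 973, 976 and 906 FPKM with RAB6A siRNA. The 3 groups overlapped. The log2 fold change of Ccl9 in RAB6A siRNA against NC was 0.01 (SE 0.07) and ranged from -0.38 with quantile normalization to 0.25 with the correction for GC content and gene length. The FPKM of Ccl9 per FPKM of Ccl6 was 183 ± 9.58 (SD, n = 3) with NC siRNA, 178 ± 34.3 (SD, n = 3) with SFRP2 siRNA and 55.5 ± 8.85 (SD, n = 3) with RAB6A siRNA.

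The CCR4 ligands Ccl22 and Ccl17 were the lowest members in the NC siRNA libraries. Ccl22, also known as MDC, which attracts type 2 helper and regulatory T cells, was at 4.59, 4.81 and 4.52 FPKM with NC siRNA, at 4.05, 4.05 and 3.90 FPKM with SFRP2 siRNA and at 106, 88.7 and 99.9 FPKM with RAB6A siRNA. All 3 RAB6A siRNA libraries were above the other 6, and all 3 SFRP2 siRNA libraries were below NC. The log2 fold change was 4.37 (SE 0.08) in RAB6A siRNA against NC, from 444 to 527 reads against 7606 to 8994, and 59 of the 12712 genes had a higher one. In SFRP2 siRNA against NC it was -0.21 (SE 0.06). Ccl17, or TARC, was read from 0, 2 and 2 reads with NC siRNA, from 0 reads in all 3 SFRP2 siRNA libraries and from 16, 2 and 14 reads with RAB6A siRNA. Replicate 2 of RAB6A siRNA thus had the same 2 reads as 2 of the NC libraries, and its FPKM of 0.103 was above theirs only through the smaller read total. The recovered reads of Ccl17 were even in every library, as they are where both mates of a pair are counted. A count of 0 then allows up to 3 pairs, that is 6 reads, or 0.288 to 0.336 FPKM of Ccl17 in the SFRP2 siRNA libraries, a limit that covers counting error only. No fold change is given for Ccl17.

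**Figure D2:**
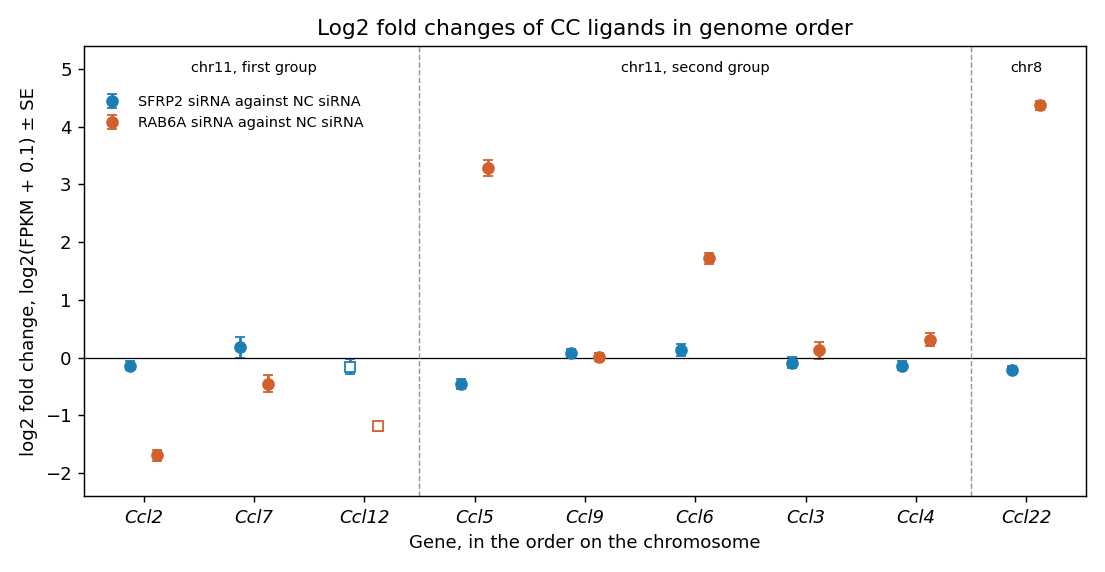
Log2 fold changes against NC siRNA on the log2(FPKM + 0.1) scale, with bars of 1 moderated SE. Filled circles are the 8 members past the filter and open squares are Ccl12, in chromosome order with broken lines between the clusters. In RAB6A siRNA against NC, Ccl2 (-1.69), Ccl7 (-0.45) and Ccl12 (-1.19) are below 0 and Ccl5 (3.28), Ccl6 (1.72) and Ccl22 (4.37) above it, while Ccl3, Ccl4 and Ccl9 lie near 0 and take the other sign under another scaling or correction.

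By place on the chromosome, both members of the first group on chromosome 11 had a lower mean with RAB6A siRNA. In the second group Ccl5 and Ccl6 were higher, while Ccl3, Ccl4 and Ccl9 had means above NC and log2 fold changes that took the other sign under another scaling or correction. Ccl12, or MCP-5, a mouse CCR2 ligand that lies in the same group as Ccl2 and Ccl7 and is not a member, was tested in the fit over all genes. It was at 25.7, 22.6 and 21.4 FPKM in the NC siRNA libraries and at 10.0, 9.75 and 10.6 FPKM in the RAB6A siRNA libraries. It fell, with a log2 fold change of -1.19 (limma, SE 0.08, adjusted p = 1.03e-05), in all 3 RAB6A siRNA libraries below NC, and by 1.83 with the correction for GC content and gene length. Of the 15 CC ligands outside the 9 members, 8 are in the table and only Ccl12 and Ccl25, a ligand of CCR9, passed the filter. Ccl25 was not called, at a log2 fold change of 0.03 (SE 0.19, limma, adjusted p = 0.908). In SFRP2 siRNA against NC neither was called, with log2 fold changes of -0.16 for Ccl12 and 0.30 for Ccl25.

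The summed FPKM of the 9 members was 28026 ± 1442 (SD, n = 3) with NC siRNA, 26378 ± 1135 (SD, n = 3) with SFRP2 siRNA and 30616 ± 493 (SD, n = 3) with RAB6A siRNA. Ccl3 made up 82.7%, 82.8% and 82.8% of it in the 3 groups on average. The sum was 7.61%, 7.17% and 7.52% of all FPKM and 2.43%, 2.31% and 2.61% of all reads. Most of the total thus came from a ligand whose groups overlapped. Without Ccl3, the share of Ccl2 was 44.2% ± 1.495 (SD, n = 3) with NC siRNA, 43.1% ± 3.41 (SD, n = 3) with SFRP2 siRNA and 12.7% ± 0.362 (SD, n = 3) with RAB6A siRNA. The share of Ccl5 was 3.27% ± 0.227, 2.54% ± 0.105 and 29.5% ± 1.91 (SD, n = 3 each) in the same order. Ccl2 was at 13.5 ± 0.626 (SD, n = 3) times the FPKM of Ccl5 with NC siRNA, at 17.0 ± 2.09 (SD, n = 3) times with SFRP2 siRNA and at 0.431 ± 0.0407 (SD, n = 3) times with RAB6A siRNA. The order of this pair was the same in all 6 libraries of the first 2 groups and the opposite in all 3 RAB6A siRNA libraries. The shares of Ccl4 and Ccl9 stayed between 29.2% and 37.4% and between 17.1% and 23.9% over the 9 libraries.

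**Figure D3:**
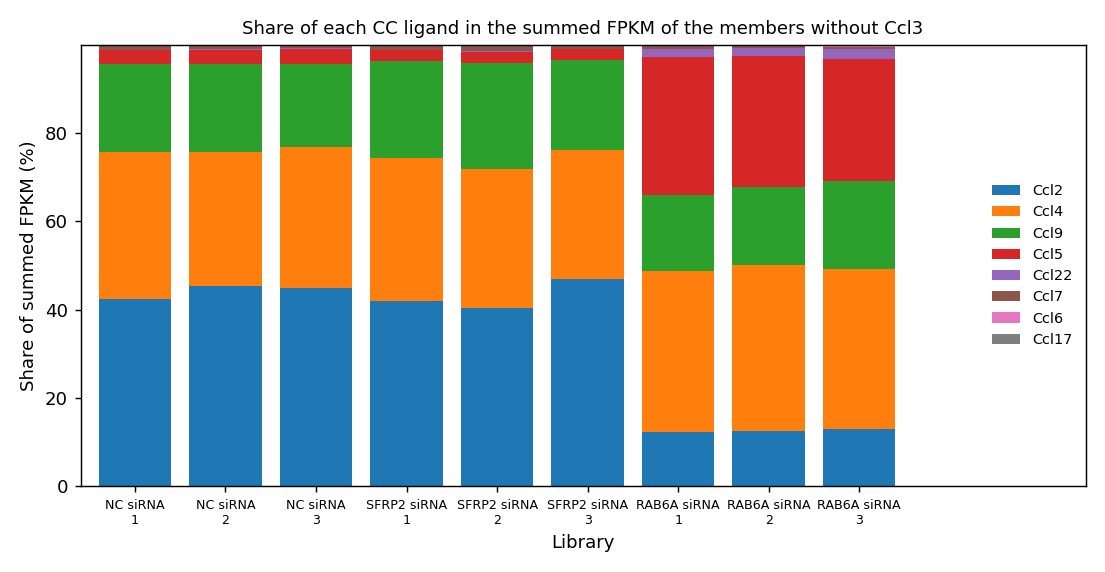
Share of each CC ligand in the summed FPKM of the members other than Ccl3, in % (y axis), as 1 stacked bar per library. Ccl5 takes 27.5% to 31.3% of the bars of the RAB6A siRNA libraries and 3.05% to 3.50% of those of the NC siRNA libraries, and Ccl2 takes 12.4% to 13.1% and 42.5% to 45.3%.

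In the comparison of SFRP2 siRNA with NC, the differences of the members were small. All 8 members past the filter were within 1.38 times of their NC mean, and log2 fold changes ran from -0.46 (Ccl5) to 0.18 (Ccl7). Ccl5 and Ccl22 had all 3 SFRP2 siRNA libraries below NC, and the other 6 overlapped, where 24.7% of all 12017 genes tested did not overlap and 13.9% were lower without overlap. None of the 12017 genes reached the threshold of limma after adjustment (0.0%), with 0.140 as the smallest adjusted p. Before adjustment, p was under 0.05 for 2220 of them (18.5%). With limma voom on recovered reads 62 genes were called. For SFRP2 siRNA in RAW264.7 cells, the paper reports differentially expressed genes by a count test, some of them in chemokine signaling. That test was not used here, so the counts are not alike in method. Both comparisons use the same 3 NC siRNA libraries, so that a high or low NC value moves both. Side by side, the log2 fold changes against NC were -0.46 and 3.28 for Ccl5, -0.21 and 4.37 for Ccl22, and -0.14 and -1.69 for Ccl2, each with SFRP2 siRNA first and RAB6A siRNA second.

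Apart from Ccrl2, at 14.0 FPKM with NC siRNA, the CC chemokine receptors were low in these cells. Of 15 receptors listed, 14 are in the table and 3 passed the filter in each comparison. Ccr1, the receptor for Ccl3, Ccl5, Ccl6 and Ccl9, was at 4.51, 3.56 and 3.29 FPKM with NC siRNA, at 3.91, 3.79 and 3.23 FPKM with SFRP2 siRNA and at 0.0388, 0.149 and 0.0216 FPKM with RAB6A siRNA. It fell by 4.58 on the log2 scale in RAB6A siRNA against NC (limma, SE 0.31, adjusted p = 1.03e-05), from 396 to 532 reads down to 2 to 16. At these low levels the size depends on the pseudocount, and the log2 fold change ranged from -6.01 to -2.15 (pseudocount 1) over the alternatives. Ccrl2, an atypical receptor that binds chemerin and does not signal, was at 12.7 FPKM with RAB6A siRNA and 14.0 FPKM with NC siRNA and was not called (limma, log2 fold change -0.14, adjusted p = 0.0972), but was called without replicate 1 of RAB6A siRNA (-0.20, limma, adjusted p = 0.0359). Ccr10 was not called (limma, log2 fold change -0.17, adjusted p = 0.4996). Of the 3 receptors 1 was thus called in RAB6A siRNA against NC, beside 74.1% of all genes. Their median log2 fold change was -0.17, against 0.03 over all genes. No receptor was called in SFRP2 siRNA against NC, where 1 of the 3 had an unadjusted limma p under 0.05, beside 18.5% of all genes.

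Genes known to act upstream of CC ligand transcription or on their mRNA were taken as a list of 39, all of which passed the filter in RAB6A siRNA against NC. Of these, 15 rose and 16 fell in limma at an adjusted p under 0.05, and 8 were not called, with a median log2 fold change of 0.12 against 0.03 over all genes. The share called, 31 of 39, stands beside 74.1% of all genes, of which 37.6% rose and 36.5% fell. The LPS receptor and its adaptors lay mostly below NC, with 6 of 7 lower. Among them Myd88, the adaptor of most Toll-like receptors, fell by 1.32 (SE 0.06), Ticam2, the bridging adaptor for the interferon branch, fell by 1.02 (SE 0.08), and Ly96, the MD-2 subunit of the LPS receptor, fell by 0.88 (SE 0.09), all on the log2 scale. Cd14, the LPS co-receptor, was not called, at a log2 fold change of 0.21 (limma, adjusted p = 0.0785). Tlr4 fell by 0.50 (SE 0.14) and Tirap by 0.44 (SE 0.08), and both lost the call with the correction for GC content and gene length, at adjusted p = 0.0576 and 0.269 in limma.

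Of 10 NF-kB genes, 5 rose and 4 fell. Nfkbie and Nfkbib, inhibitors that hold NF-kB in the cytoplasm, rose by 1.66 (SE 0.12) and 0.80 (SE 0.06) on the log2 scale. Nfkbia, another such inhibitor, was not called (limma, log2 fold change -0.09, adjusted p = 0.292). With NC siRNA it was at 210 FPKM, against 51.5 for Nfkbib and 3.50 for Nfkbie. The subunits Relb, Nfkb2 and Rel rose by 0.53, 0.40 and 0.38. The subunits Nfkb1 and Rela fell by 0.60 and 0.32, and Tnfaip3, which encodes the feedback inhibitor A20, fell by 1.00 (SE 0.05). In the interferon arm 5 of 10 rose and 2 fell. Irf7, a factor that amplifies type I interferon, rose by 0.71 (SE 0.09), and Irf1, a factor known to act on the Ccl5 promoter, fell by 1.09 (SE 0.05). Ifnb1 was at 0.443 FPKM with NC siRNA and 0.947 FPKM with RAB6A siRNA and was not called (limma, log2 fold change 0.97, adjusted p = 0.0790).

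Of the 6 AP-1 and C/EBP genes, Jun, Atf3 and Junb rose by 1.16, 1.09 and 0.40 on the log2 scale and Fos fell by 1.13. Of the IL-4 arm, known for its action on Ccl17 and Ccl22 in alternatively activated macrophages, Irf4 fell by 1.90 (SE 0.24, or by 0.85 with a pseudocount of 1) and Stat6 by 0.96 (SE 0.07), while Il4ra was not called at a log2 fold change of 0.13 (limma, adjusted p = 0.364). Among genes that bind and destabilize cytokine mRNA, Zfp36l1 rose by 1.73 (SE 0.09) and Zfp36, which encodes tristetraprolin, by 1.45 (SE 0.06). Zc3h12a, which encodes the RNase Regnase-1, fell by 1.07 (SE 0.08). In SFRP2 siRNA against NC, 38 of the 39 genes passed the filter and 0 were called by limma, with log2 fold changes from -0.31 to 0.20. An unadjusted limma p under 0.05 was found for 7 of the 38, beside 18.5% of all genes.

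**Figure D4:**
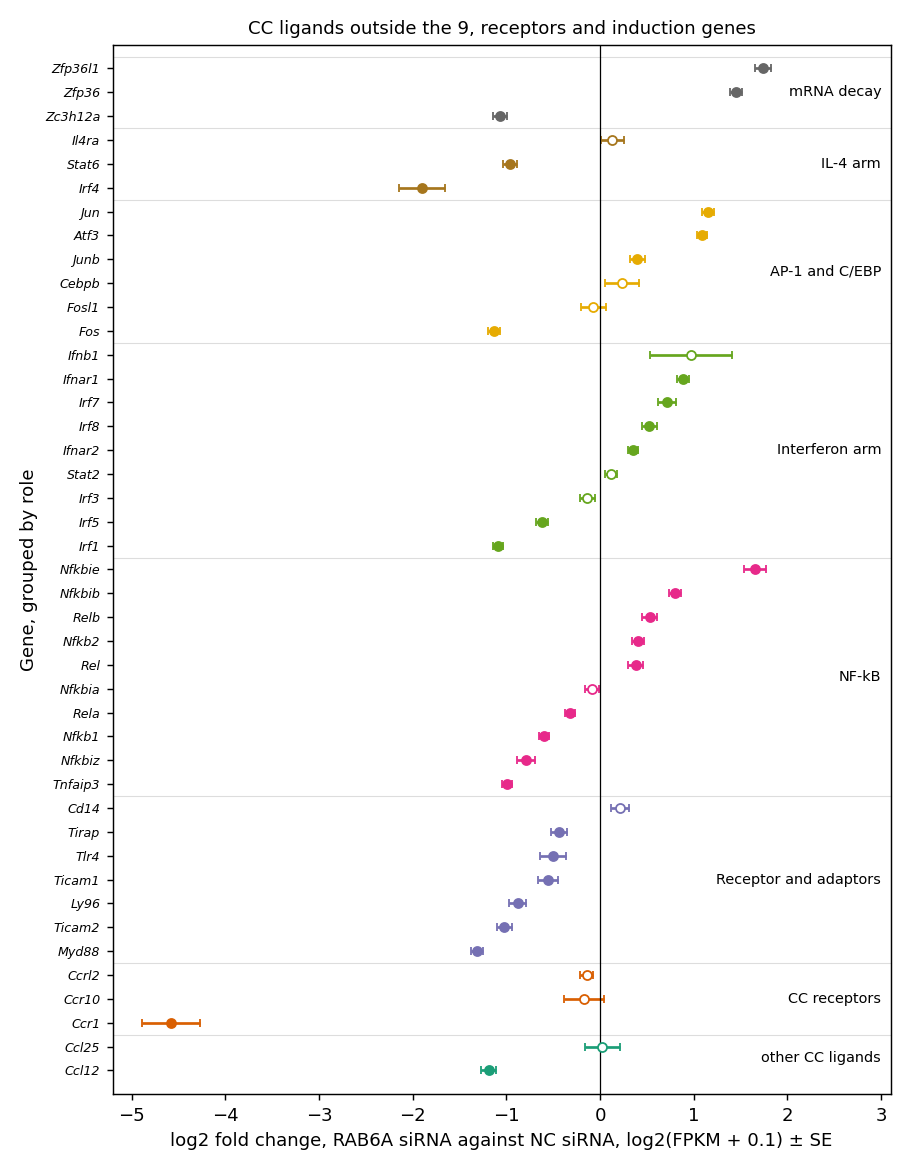
Log2 fold changes (x axis, log2(FPKM + 0.1) scale, bars of 1 SE) in RAB6A siRNA against NC siRNA for CC ligands outside the 9 members, CC receptors and induction genes, grouped by role, with 1 gene of the interferon arm not shown and filled points for an adjusted p under 0.05 in limma. Ccr1 lies farthest to the left at -4.58, 6 of the 7 receptor and adaptor genes are filled and below 0, and the NF-kB, interferon, AP-1 and mRNA decay arms hold filled points on both sides.

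Genes with the profile most like a member over the 9 libraries were found by the root mean square difference of log2(FPKM + 0.1), each gene centered on its NC mean, among 12549 genes. For Ccl2 they were Exosc2 (difference 0.09) and Brms1l (0.09), which were at 16.3 and 6.52 FPKM with NC siRNA and at 4.86 and 1.91 FPKM with RAB6A siRNA. For Ccl5 they were Procr (0.22) and Bbc3 (0.22), for Ccl6 Aph1c (0.07) and Rpl35a-ps2 (0.12), and for Ccl22 Trp53inp1 (0.21) and Gm36638 (0.22). For Ccl3, Ccl4, Ccl7 and Ccl9 the nearest genes were Vps39, Atp5j2, Ankrd12 and Sqle, at differences of 0.03, 0.04, 0.12 and 0.04. None of the 2 nearest genes of any of these 8 members was another CC ligand. Likeness over these 9 libraries rests on 3 groups and on shared library totals, and it is a description only.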

How the data were processed

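Total RNA of the 9 libraries was read as paired-end mRNA-seq. The authors deposited FPKM per Ensembl gene identifier and library. The submitters' processing notes name HISAT2, featureCounts and Subread, and their versions, roles and genome build are not given in the sources used here. Of 28137 identifiers, 27533 were named from GENCODE M21. FPKM multiplied by exon length gave whole reads recovered within 0.03 of a read in all 9 libraries for 27084 genes (98.4% of those named). Read totals, from 32758729 to 47149258 per library, set the precision. Every column of the table was mapped to a library by its name.

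Groups were taken from the labels. Each siRNA group was compared with NC siRNA with limma 3.58.1 in R 4.3.3 on log2(FPKM + 0.1) (lmFit, eBayes with a trend, Benjamini-Hochberg) where the 6 libraries averaged 0.5 FPKM or more. This scale understates fold changes of low genes. The count test that the methods of the paper name was not used, since the values are FPKM. The fit was also run on data simulated with few changed genes. That setting is unlike RAB6A siRNA against NC, so the run does not vouch for the fit there. Alternatives were the pseudocounts 1 and 0.01, no filter and a minimum average of 1 FPKM, scaling by median of ratios, quantile normalization, the replicate number as a block, correcting GC content and gene length (splines with 5 degrees of freedom), both together, all 9 libraries in a single fit, limma voom on the recovered reads, and each library left out in turn.

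The members and lists were chosen with earlier results of these data known. Lists of CC ligands, receptors, induction genes and cell type markers were written from general knowledge. Genes named were the members, listed genes that averaged 0.5 FPKM or more, the 2 genes most alike in profile to each member, and Sfrp2 and Rab6a. The genes mt-Co1, E230016K23Rik, Ccr2, Ccr4 and Ackr4 were named after their values were seen, and Ccl1, Ccl8, Ccl11 and Gm17268 for their place only. The values of 1 listed gene, which is in the counts, are not reported here. Sequences are from RefSeq. Python 3.11.15 with Biopython 1.88 and matplotlib 3.10.9 was used for other steps.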

Additional observations from a re-analysis of the deposited data

How the results depend on the processing

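The log2 fold changes of Ccl2, Ccl5, Ccl6, Ccl7 and Ccl22 kept their sign in both comparisons under all 17 alternatives. In RAB6A siRNA against NC they ranged from -1.92 to -1.61 for Ccl2, from 2.88 to 3.43 for Ccl5, from 1.57 to 1.82 for Ccl6, from -0.88 to -0.28 for Ccl7 and from 4.14 to 4.52 for Ccl22. Ccl3 was at -0.2181 with quantile normalization and at -0.2976 with the correction for GC content and gene length, with or without the replicate block, and Ccl4 was at -0.1983 with that correction, with or without the block. The cause was not tested. The log2 fold change of Ccl9, close to 0 in both comparisons, changed sign under 5 and 2 of the 17. In RAB6A siRNA against NC, 3829 DEGs became 2389 with a pseudocount of 1. The count of CC receptors called was 4 with no filter, where Ccr2, Ccr4 and Ackr4 were added at under 0.5 FPKM, and from 1 to 2 with a library left out. In SFRP2 siRNA against NC, the genes called by limma numbered 62 with voom on recovered reads, 2 of them DEGs, and from 0 to 1 with a library left out, for genes and for DEGs (1 without NC siRNA replicate 1). In every fit, the main one included, a single spread per gene was taken over all groups in the fit, also with 2 libraries left in a group. Whether libraries of the same replicate number belong together is not stated, and correlations over 3 libraries per group cannot exclude it. Deviations of same-numbered libraries from their group means correlated at -0.01 to 0.03 (RAB6A siRNA and NC) and at -0.06 to 0.05 (SFRP2 siRNA and NC) over genes. With the replicate number as a block, 9103 genes in place of 9418 were called in RAB6A siRNA against NC and 0 in SFRP2 siRNA against NC. Genes with an unadjusted limma p under 0.05 then went from 9668 to 9462 and from 2220 to 2988. The block lowered the SE of Ccl7 from 0.14 to 0.08 (RAB6A siRNA) and from 0.19 to 0.09 (SFRP2 siRNA). It raised that of Ccl3 from 0.15 to 0.19 (RAB6A siRNA). All 33 listed genes called in RAB6A siRNA against NC kept their sign, and 30 kept the call in every alternative that tested them, the exceptions including Tlr4 and Tirap. Among the induction genes named and called, some log2 fold changes moved by over 1.5 times. With the correction for GC content and gene length these were Nfkb1 (to -0.36), Rel (to 0.64), Tirap (to -0.10) and Junb (to 0.25). Rela moved to -0.15 with quantile normalization, and Tlr4 (to -0.33) and Irf4 (to -0.85) moved with a pseudocount of 1. Depth limits Ccl17 and Sfrp2, which rest on few reads.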
